A study of Homo sapiens with 11 samples.

Results

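The 8 knockdown arrays of a series of 11 arrays differ in whether MV4-11 cells received an shRNA against RUNX2, and 4 of them carried it while 4 did not. MV4-11 is a human acute myeloid leukaemia line with a KMT2A::AFF1 fusion and an internal tandem duplication in FLT3. The 4 arrays without the RUNX2 shRNA were the luciferase shRNA control (shLuc), shRUNX1, shRUNX3 and shRUNX1+shRUNX3. The 4 arrays with it were shRUNX2, shRUNX1+shRUNX2, shRUNX2+shRUNX3 and shRUNX1+shRUNX2+shRUNX3. All 8 cultures were transduced and received 3 µM doxycycline for 24 hours, so the control also carried an shRNA and the drug. The other 3 arrays came from cells given DMSO, Chb-M' or Chb-50 for 6 hours, each compound at 1 µM, and serve below only as further levels.

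Each array with the RUNX2 shRNA was set against the array with otherwise the same shRNAs, which gives 4 pairs, each a log2 difference of the array with the shRNA minus the array without it. The pairs are named by the array with the shRNA, and values are listed in the order shRUNX2, shRUNX1+shRUNX2, shRUNX2+shRUNX3 and shRUNX1+shRUNX2+shRUNX3. Levels without the shRNA are listed in the matching order shLuc, shRUNX1, shRUNX3 and shRUNX1+shRUNX3. Of 12147 genes tested, 1700 had the same sign in all 4 pairs. There was 1 array per condition, and nothing in the labels says that arrays came from separate transductions or days. The p-values therefore measure only the spread between these 8 arrays. In the additive fit used below, that spread is departure from the sum of the shRNA effects. Array noise and dependence between shRNAs cannot be told apart in it. The exact permutation test used below exchanges arrays of different conditions and does not use the pairs. The labels do not say which shRNA sequence was used or whether a culture was a clone.

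RUNX1, RUNX2 and RUNX3 are transcription factors that share the Runt domain, which binds DNA together with the partner CBFB. They recognise the same short DNA core, TGTGGT or TGCGGT, and either activate or repress a gene depending on the cofactors they recruit. RUNX1 is required for definitive blood formation, RUNX2 is best known as the factor that commits cells to bone, and RUNX3 acts in lymphocytes and neurons. In blood, RUNX2 is also expressed in plasmacytoid dendritic cells and in some leukaemias.

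Marker levels were read as a check of the labelled cells. Of 15 genes of the leukaemia identity list, 12 were tested, among them FLT3 at a mean log2 level of 9.50 over the 8 arrays, SPI1 at 8.60 and LYZ at 11.47, while MPO (5.22), ANPEP (4.39) and ITGAM (4.07) were lower. Of the 13 with a value, CD14 was the exception at 2.42, below the level filter of 3.80. Most markers of T cells, B cells, erythroid cells and stroma lay below the filter too, with 2 of 6, 2 of 6, 3 of 8 and 2 of 9 tested. CD3E read 2.23, MS4A1 2.03, HBB 1.54 and DCN 1.55, but PF4 read 5.21, KRT8 4.73 and CD79A 4.34. The fusion and the FLT3 duplication were not analysed here. In the array labelled shRUNX1, RUNX3 read 7.70, inside the range of 7.65 to 7.87 of the arrays with the RUNX3 shRNA. The SD of the differences over all genes tested was 0.259 in the pair that uses this array, against 0.173 to 0.196 in the other 3 pairs. That SD belongs to shRUNX1+shRUNX2 as much as to shRUNX1, and which of them deviates was not tested. The lowest adjusted p of the limma fit described below was 0.055 without shRUNX1+shRUNX2 and 0.998 without shRUNX1. Without this pair, 1540 genes were higher and 1412 lower in the other 3 pairs (12.7% and 11.6% of those tested), and lists are given without it as well.

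RUNX2 itself was lower in all 4 pairs. Its log2 level was 5.72, 5.70, 5.56 and 5.82 with the shRNA, against 6.14, 6.30, 6.00 and 6.13 without it. The highest array with the shRNA lay below the lowest array without it. The means were 5.70 ± 0.107 (SD, n = 4) and 6.14 ± 0.123 (SD, n = 4), and the difference was -0.45, so that the level with the shRNA was 73.4% of the level without it. With all 70 assignments of the arrays, the exact permutation test (two-sided) gave p = 0.0286, the smallest it allows, and 0.114 after Benjamini-Hochberg adjustment over the 4 family genes tested. The exact sign-flip test over the 4 pairs gave 0.125, also the smallest it allows. In the limma fit over all genes the standard error of the RUNX2 difference was 0.0663 and the adjusted p was 0.965. The probes' place relative to the shRNA target was not analysed here. In bulk RNA, fewer cells with a transcript and less of it per cell cannot be told apart.

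The relatives of RUNX2 gave smaller differences. RUNX3 read 8.24, 8.37, 7.87 and 7.66 with the RUNX2 shRNA and 8.15, 7.70, 7.76 and 7.65 without it. It was higher in 4 of 4 pairs, but the pair differences of 0.09, 0.67, 0.12 and 0.00 were set largely by the pair that uses the array labelled shRUNX1. The groups overlapped, and the exact permutation test gave p = 0.257, or 0.343 adjusted. RUNX1 is listed only on a cluster shared with LOC100506403, whose pair differences were 0.15, 0.14, 0.04 and -0.07 (exact permutation p = 0.629). That cluster read only 3.96 to 4.45 on the 8 arrays, close to the level filter of 3.80. It read 4.30 in shLuc and 4.12 in shRUNX1, so it responds little to the RUNX1 shRNA itself. Whether RUNX1 changed with the RUNX2 shRNA cannot be read from it. CBFB, the shared DNA-binding partner, differed by 0.04, -0.17, -0.06 and -0.09 (exact permutation p = 0.229, adjusted 0.343). In the compound experiment RUNX2 read 6.13 with DMSO, 5.82 with Chb-M' and 5.90 with Chb-50.

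**Figure D1:**
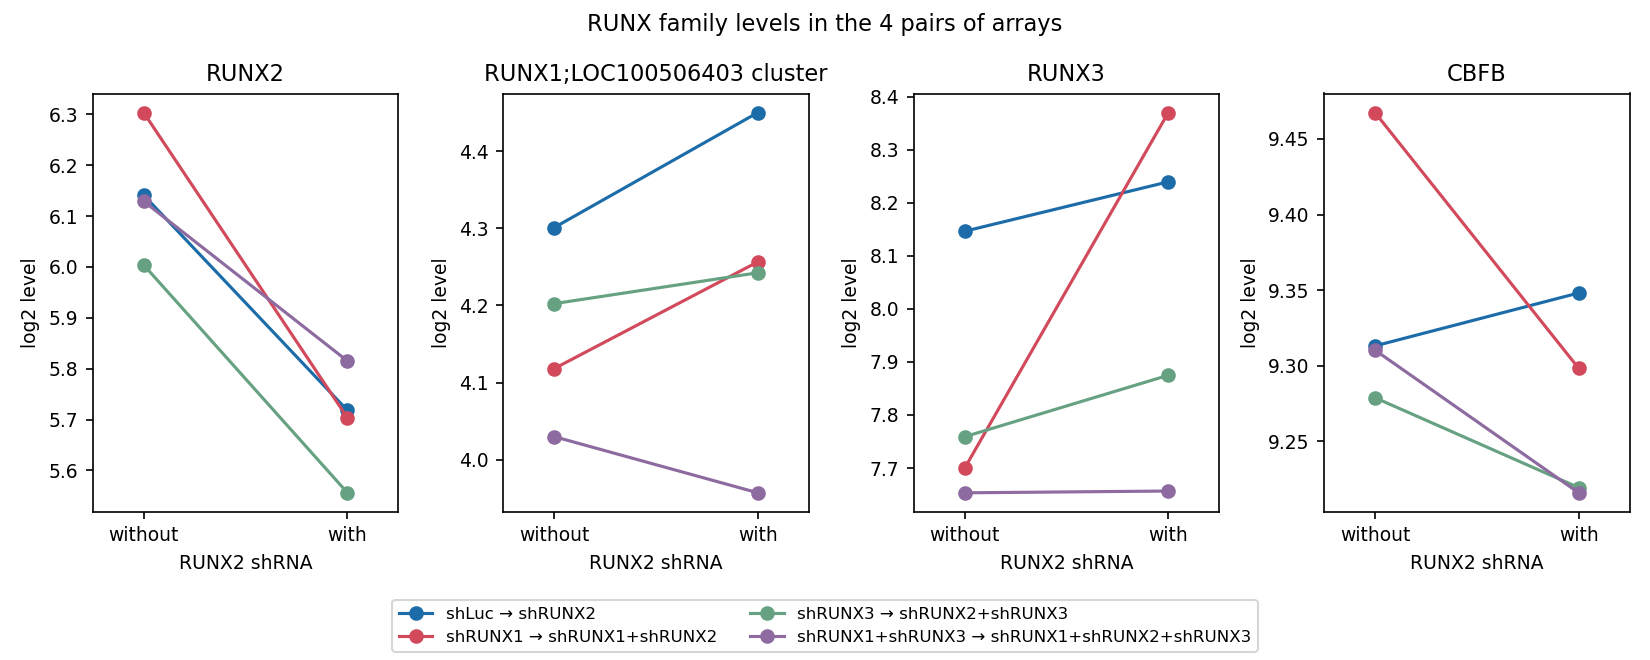
Log2 levels of RUNX family genes on the 8 knockdown arrays, without (left) and with (right) the RUNX2 shRNA; each line joins the arrays of 1 pair. All 4 RUNX2 lines slope down, from between 6.00 and 6.30 to between 5.56 and 5.82, while the RUNX3 lines are close to level except the pair that starts from the array labelled shRUNX1 at 7.70.

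The bases just before the annotated start of a gene show whether the RUNX core lies near it. The letters TGTGGT and TGCGGT were searched on both strands of the 250 bases upstream, so a match on the other strand reads ACCACA or ACCGCA. RefSeq windows on GRCh38.p14 are shown 5′ to 3′ on the gene's strand for the targeted gene and RUNX3, for the 2 genes besides RUNX2 among the 15 lowest in which a match was found (NSF and OCRL), and for GAPT, the gene with the largest consistent difference upward. Capitals mark the matches.
RUNX2: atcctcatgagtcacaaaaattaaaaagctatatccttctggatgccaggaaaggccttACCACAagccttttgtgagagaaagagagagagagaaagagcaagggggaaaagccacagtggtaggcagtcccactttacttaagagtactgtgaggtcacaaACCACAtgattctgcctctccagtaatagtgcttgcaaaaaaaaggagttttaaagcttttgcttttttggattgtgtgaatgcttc
RUNX3: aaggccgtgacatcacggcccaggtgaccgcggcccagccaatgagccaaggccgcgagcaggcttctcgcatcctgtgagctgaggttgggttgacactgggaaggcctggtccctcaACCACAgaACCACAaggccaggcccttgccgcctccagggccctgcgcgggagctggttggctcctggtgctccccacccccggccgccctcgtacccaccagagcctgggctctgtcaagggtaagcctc
NSF: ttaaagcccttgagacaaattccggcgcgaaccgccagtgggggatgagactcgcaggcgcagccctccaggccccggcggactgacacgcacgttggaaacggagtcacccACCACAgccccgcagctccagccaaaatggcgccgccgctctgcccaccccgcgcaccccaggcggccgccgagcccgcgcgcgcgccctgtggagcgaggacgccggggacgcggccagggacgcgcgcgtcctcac
OCRL: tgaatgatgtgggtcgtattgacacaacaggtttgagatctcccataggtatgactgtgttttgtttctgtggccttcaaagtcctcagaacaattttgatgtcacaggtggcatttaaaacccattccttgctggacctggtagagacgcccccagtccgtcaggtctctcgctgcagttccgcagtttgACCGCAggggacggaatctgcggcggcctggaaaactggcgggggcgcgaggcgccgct
GAPT: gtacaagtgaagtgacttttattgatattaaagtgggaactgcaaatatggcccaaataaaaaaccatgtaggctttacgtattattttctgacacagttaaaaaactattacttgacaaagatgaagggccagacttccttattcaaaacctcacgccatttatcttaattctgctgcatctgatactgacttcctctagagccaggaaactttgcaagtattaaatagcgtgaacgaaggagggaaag
The RUNX2 window is chr6:45328080-45328329 on the plus strand, with ACCACA at 191 and 87 bases before the start. The RUNX3 window, chr1:24965011-24965260 on the minus strand, holds ACCACA at 131 and 123 bases before it. The NSF window is chr17:46590419-46590668 on the plus strand, with ACCACA at 138 bases, and the OCRL window is chrX:129540009-129540258 on the plus strand, with ACCGCA at 59 bases. No match lies in the GAPT window, chr5:58491185-58491434 on the plus strand. A match in such a short window is common: 16.1% of all 27305 windows held at least 1. Among genes tested the share was 15.5% of 9181 with a window. It was 14.8% of 698 genes higher in all 4 pairs and 14.3% of 600 genes lower in all 4 pairs, both slightly under the share among all genes tested. Of the 15 higher and 15 lower genes ranked first, 9 and 11 have a window, and 0 and 3 of these hold a match. At 0.2 log2 or more the share was 13.3% of 15 higher and 33.3% of 9 lower genes with a window. The latter is 3 genes, NSF, OCRL and RUNX2, the last being the target of the shRNA itself.

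Over all genes, the differences between arrays with and without the RUNX2 shRNA were small, and most genes changed sign between pairs. The additive limma fit, with terms for the 3 shRNAs, called 0 of 12147 genes (0.0%) at an adjusted p under 0.05, while 593 (4.88%) had an unadjusted p below that value. The lowest adjusted p was 0.965. The 1700 genes with 1 sign in all 4 pairs are 14.0% of those tested, 930 higher (7.66%) and 770 lower (6.34%). A rule of 4 equal signs keeps 12.5% of genes when the signs are independent and even. The split depends on scaling: after median-centring of the arrays 683 genes were higher and 1256 lower, and after quantile normalization 895 and 926. The same rule kept 3390 genes (27.9%) for the RUNX1 shRNA and 1862 (15.3%) for the RUNX3 shRNA over the same 8 arrays, and the difference between these shares was not tested.

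At 0.05 log2 or more in every pair 585 genes were left (4.82%), at 0.1 there were 219 (1.8%), and at 0.3 there were 9 (0.0741%). At 0.2 there were 44 genes, and those described below are the 15 ranked first in each direction by their smallest pair difference, of which 4 lower genes (PUS7L, HINT3, CREBL2 and GPR153) miss 0.2 narrowly. The 44 genes (0.362%) were 27 higher (0.222%) and 17 lower (0.14%). The RUNX1 and RUNX3 shRNAs left 352 (2.9%) and 76 (0.626%) at that size. Just inside the threshold lay GASK1B, at 0.44, 0.77, 0.20 and 0.50, and OCRL, at -0.23, -0.75, -0.41 and -0.20. GASK1B reached the level filter on 3 arrays with the shRNA and on 1 without it. Just outside lay CD300LB, an activating receptor of myeloid cells, at 0.20, 0.51, 0.25 and 0.26, and PUS7L at -0.23, -0.20, -0.30 and -0.25. The level filter asked for 3.80 on any of the 11 arrays, so a gene could pass through 1 side alone. Of the 930 higher genes, 39 reached it on arrays with the shRNA and on none without it, and of the 770 lower genes 40 reached it on arrays without the shRNA and on none with it. Among the 44 genes this held for 1 higher and 2 lower genes. On a different count, 187 genes (1.54%) had all 4 arrays with the shRNA on one side of all 4 without it, 98 above (0.807%) and 89 below (0.733%).

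**Figure D2:**
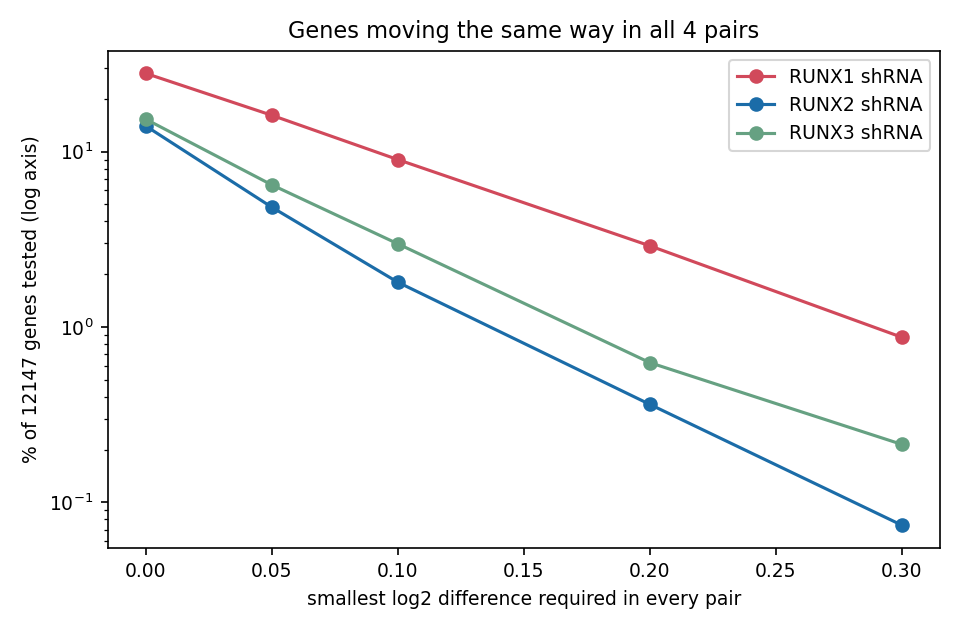
Share of the 12147 genes tested that had the same sign in all 4 pairs (log axis), against the smallest log2 difference asked for in every pair, for each of the RUNX1, RUNX2 and RUNX3 shRNAs. At 0.2 log2 the shares were 0.362% for the RUNX2 shRNA, 2.9% for the RUNX1 shRNA and 0.626% for the RUNX3 shRNA.

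GAPT, a transmembrane adaptor that binds GRB2 in blood cells, led the 15 higher genes ranked by their smallest pair difference. It read 5.45, 6.22, 5.17 and 5.65 with the RUNX2 shRNA and 4.75, 4.29, 4.52 and 5.15 without it. All 4 arrays with the shRNA lay above all 4 without it, with shRUNX2+shRUNX3 only just above shRUNX1+shRUNX3. Its mean difference was 0.94 (SE 0.232), or 1.92-fold, with the largest pair, 1.93, being the one that uses the array labelled shRUNX1. No gene described here by its pairs passed the fit over all genes, so these values describe the arrays.

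ADA2, a secreted adenosine deaminase made by myeloid cells, read 5.78, 6.18, 5.64 and 6.08 with the shRNA and 5.15, 5.61, 5.33 and 5.74 without it. The groups overlapped, with higher levels on arrays with the RUNX1 shRNA on both sides, and each pair differed by 0.31 to 0.63. TBXAS1, the thromboxane synthase, read 5.08, 5.41, 4.87 and 4.79 with the shRNA and 4.42, 4.59, 4.59 and 4.52 without it. Its groups did not overlap, and its pair differences were larger without the RUNX3 shRNA (0.67 and 0.82) than with it (0.28 and 0.27). THBD, thrombomodulin, an anticoagulant receptor also carried by monocytes, read 7.17, 8.05, 7.38 and 7.67 against 6.65, 7.20, 7.05 and 7.45. Here too the groups overlapped and every pair was positive. HTR2B, a serotonin receptor, differed by 0.58, 0.45, 0.25 and 0.58, from low levels of 3.52 to 4.73 without the shRNA.

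CYFIP2, GAS7 and FSCN1, 3 of the 15, encode proteins that act on the actin skeleton. CYFIP2, a subunit of the WAVE complex that drives actin branching and a known p53 target, read 4.86, 4.98, 4.99 and 4.77 with the shRNA and 4.50, 4.25, 4.69 and 4.42 without it. All arrays with the shRNA lay above all without it. GAS7, an actin-binding protein, read 5.22, 5.19, 5.22 and 5.66 against 4.93, 4.69, 4.76 and 4.85, again without overlap and with the highest level on the array with all 3 shRNAs. FSCN1, fascin, which bundles actin filaments, read 5.92, 6.05, 5.92 and 5.92 against 5.55, 5.85, 5.71 and 5.62. Its groups were separate, with the narrowest gap against the array labelled shRUNX1.

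The other genes of the 15 were of mixed function. VAPA, a tether between the endoplasmic reticulum and other membranes, differed by 0.33, 0.59, 0.38 and 0.31 on levels without the shRNA that ranged from 7.63 in shLuc to 8.89 in shRUNX1+shRUNX3. WWC1, a regulator of Hippo signalling, differed by 0.25, 0.32, 0.27 and 0.26. GDF11, a TGF-beta family ligand, differed by 0.21, 0.26, 0.21 and 0.22, and LTBP4, which stores latent TGF-beta in the matrix, by 0.25, 0.30, 0.21 and 0.21. HAAO, an enzyme of the kynurenine pathway, differed by 0.21, 0.33, 0.36 and 0.24 without overlap of the groups. PRSS36, a serine protease, differed by 0.56, 0.41, 0.28 and 0.32 and ZNF610, a zinc finger protein, by 0.42, 0.41, 0.24 and 0.31, both at levels near the filter. CD101, an inhibitory receptor of myeloid and T cells that was picked out after its values were seen, differed by 0.20, 0.51, 0.36 and 0.41 without overlap.

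The 15 lower genes are led by RUNX2 itself, and NSF, OCRL and KXD1 encode proteins of membrane traffic. NSF, the ATPase that takes apart SNARE complexes after membrane fusion, read 8.96, 8.80, 8.81 and 8.43 with the shRNA and 9.20, 9.18, 9.21 and 8.77 without it. The pair differences of -0.24, -0.38, -0.40 and -0.33 were even, and the groups overlapped through the low shRUNX1+shRUNX3 array. OCRL, an inositol polyphosphate phosphatase of endosomes and the Golgi, read 7.12, 6.82, 7.07 and 7.31 against 7.36, 7.57, 7.48 and 7.51, with no overlap. KXD1, a subunit of the BORC complex that positions lysosomes, read 8.98, 8.94, 8.97 and 9.00 against 9.20, 9.27, 9.19 and 9.21. Its groups were separate, with arrays close together within each group, and the mean difference was -0.25. ARSK, a lysosomal sulfatase, differed by -0.49, -0.35, -0.23 and -0.21, and SLC26A11, an anion transporter, by -0.30, -0.38, -0.33 and -0.28. Both lay near the level filter and reached it on 1 array with the shRNA and on 3 without it.

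The remaining lower genes include regulators of signalling and transcription. NEK7, a kinase needed for assembly of the NLRP3 inflammasome, read 5.60, 5.72, 5.02 and 5.40 with the shRNA and 5.87, 6.03, 5.48 and 5.75 without it, and was lower in each pair by 0.27 to 0.46. NKIRAS1, an inhibitor of NF-kappaB signalling, differed by -0.66, -0.21, -0.23 and -0.27. It reached the level filter only in shLuc (3.97) and lay below it on all 4 arrays with the shRNA. ZNF451, a SUMO ligase, read 6.78, 6.80, 6.64 and 6.92 against 7.27, 7.24, 6.98 and 7.12, with no overlap. CREBL2, a bZIP protein, differed by -0.24, -0.28, -0.19 and -0.20, also with no overlap. GPR153, an orphan receptor, differed by -0.30, -0.30, -0.22 and -0.19, HINT3, a histidine triad hydrolase, by -0.21, -0.20, -0.22 and -0.30, and NUTM2F by -0.24, -0.63, -0.24 and -0.25. NUTM2F reached the filter only on 2 arrays without the shRNA, shRUNX1 and shRUNX1+shRUNX3, so its place among the lower genes comes from the side where it is high.

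ANKFN1 carried the largest single difference among the lower genes, and it was not even across pairs. It read 7.91 in shLuc, 8.33 in shRUNX1, 7.62 in shRUNX1+shRUNX2 and 5.23 in shRUNX2. On the 4 arrays with the RUNX3 shRNA it read between 4.23 and 4.63. With DMSO ANKFN1 read 4.91. Its pair differences of -2.68, -0.71, -0.38 and -0.21 therefore came from levels of very different height, and the mean of -0.99 (SE 0.444) rests mainly on the pair of shRUNX2 with shLuc.

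**Figure D3:**
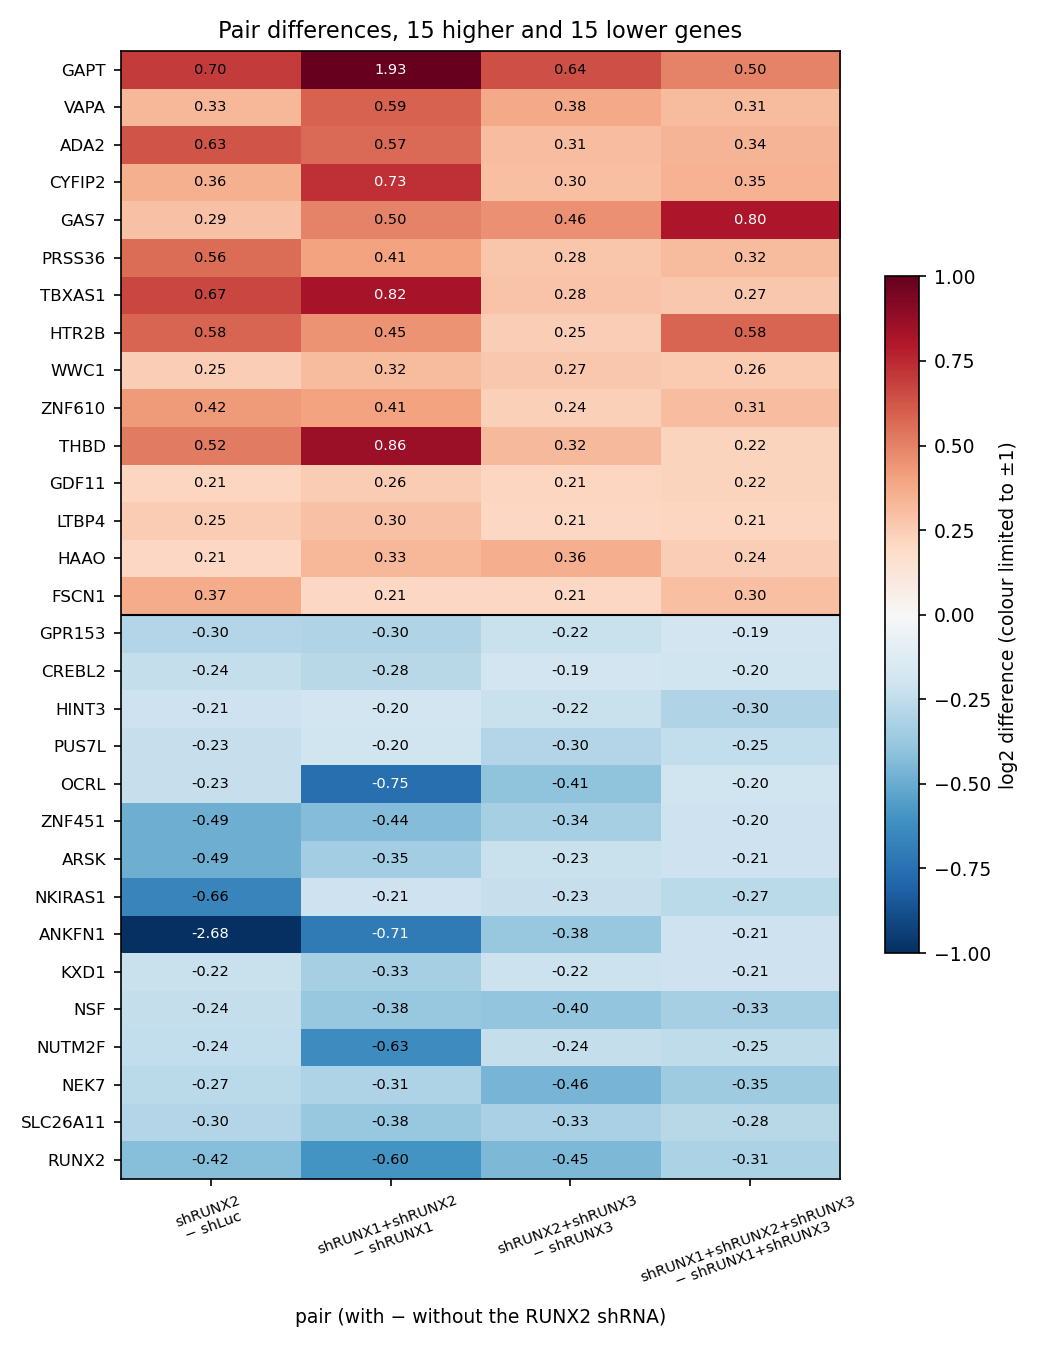
Log2 differences (with minus without the RUNX2 shRNA) of the 15 higher and 15 lower protein-coding genes with the largest smallest-pair difference, 1 row per gene and 1 column per pair; colour is limited to ±1. GAPT reaches 1.93 in the pair of shRUNX1+shRUNX2 and ANKFN1 -2.68 in the pair of shRUNX2, while rows such as WWC1 and KXD1 are nearly even.

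Lists of genes by function were read by their counts and medians beside those of all genes tested, of which 50.9% had a positive mean difference with a median of 0.00. The lists were chosen with earlier results of these data known. The shares higher and lower in all 4 pairs, to read the counts against, were the 7.66% and 6.34% given above. Counts in the 3 pairs without the array labelled shRUNX1 stand beside larger shares, 12.7% and 11.6% of all genes tested. Counts after median-centring stand beside 683 higher and 1256 lower of all genes tested, and those after quantile normalization beside 895 and 926. Of the interferon-stimulated genes 24 of 26 tested were positive, with a median of 0.10, and 9 were higher in all 4 pairs while XAF1 was lower. IFI6, a mitochondrial survival protein, read 6.10, 6.38, 5.89 and 6.02 with the shRNA and 5.45, 5.68, 5.85 and 5.82 without it. ISG15, the ubiquitin-like modifier, read 5.41, 5.57, 5.48 and 5.58 against 5.03, 5.30, 5.41 and 5.38. In both genes the groups were separate by a narrow margin and the differences were larger without the RUNX3 shRNA. PARP9 and DTX3L, which act together as an ADP-ribosylation and ubiquitin ligase pair, differed by 0.07, 0.68, 0.06 and 0.19 and by 0.10, 0.13, 0.16 and 0.17. SAMD9L, an antiviral protein and myeloid tumour suppressor, differed by 0.53, 0.51, 0.23 and 0.04. After median-centring 7 genes of the list, and after quantile normalization 8, were higher in all pairs. Without the pair of the array labelled shRUNX1, 10 were higher and 2 lower in the other 3 pairs, and the median was 0.08. Of the 26, 1 gene reached the level filter through arrays with the shRNA alone.

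Monocyte and macrophage genes gave 11 of 13 positive with a median of 0.12, and 5 were higher in all 4 pairs and 0 lower. Those were CD68, LYZ, S100A8, S100A9 and MS4A7. CD68, a lysosomal glycoprotein of macrophages, read 9.87, 10.23, 9.71 and 10.33 with the shRNA and 9.29, 9.92, 9.67 and 10.29 without it. Its groups overlapped, and its pair differences were 0.58 and 0.31 without the RUNX3 shRNA and 0.04 and 0.03 with it. S100A8, a subunit of the calcium-binding protein calprotectin, followed the same order at 0.57, 0.42, 0.12 and 0.01. Without the pair of the array labelled shRUNX1 these counts were the same and the median was 0.10. After median-centring 3 of the 13 and after quantile normalization 2 were higher in all pairs. KLF4, a monocyte transcription factor, and FCN1, a secreted lectin, were the negative members, with a mean difference of -0.12 each. FCN1 reached the level filter only on the array labelled shRUNX1, at 3.96. Its pair differences were 0.12, -0.30, -0.12 and -0.19, and the largest of them uses the array that let it in.

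Receptors for migration and adhesion gave 15 of 18 positive with a median of 0.15, which was 0.06 without the pair of the array labelled shRUNX1. The chemokine receptors CCR1 and CCR2, the integrin chain ITGB2 and the hyaluronan receptor CD44 were higher in all 4 pairs and none was lower, against 5 and 0 in the 3 pairs without it. ITGB2 differed by 0.38, 0.51, 0.08 and 0.15, and CCR2 by 0.20, 0.34, 0.08 and 0.43. ICAM1, a ligand of leukocyte integrins, gave 0.46, 1.15, -0.08 and -0.13, and ITGB7 gave 0.38, 0.92, 0.18 and -0.02. The largest ICAM1 difference starts from 3.69 in the array labelled shRUNX1, below the level filter. At the low end CCR7, a homing receptor, gave -0.10, 0.03, 0.04 and -0.29.

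Targets of p53 gave 20 of 24 positive with a median of 0.09, or 0.04 without the pair of the array labelled shRUNX1. Higher in all 4 pairs were GADD45A, PLK2, TNFRSF10B, DDB2, CCNG1 and CYFIP2, and AEN was lower, against 7 higher and 1 lower in the 3 pairs without it. GADD45A, a stress sensor that restrains the cell cycle, read 6.81, 6.70, 6.56 and 6.67 with the shRNA and 6.56, 6.34, 6.42 and 6.37 without it. Its lowest array with the shRNA equalled the highest without it at this rounding, and the groups did not overlap. EDA2R, a death receptor, gave 0.33, 1.23, 0.16 and -0.04. CDKN1A, the cell cycle inhibitor p21, gave 0.23, 0.16, -0.13 and -0.20, a mean of 0.01 whose sign turned after median-centring and quantile normalization.

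Genes tied to RUNX proteins by function gave small differences. Of 24 partner proteins tested, 16 were positive with a median of 0.03, 5 were higher in all 4 pairs and 2 lower. The Groucho corepressor TLE4, HDAC4, the corepressor scaffold SIN3A, the TGF-beta effector SMAD3 and the ubiquitin ligase SMURF1 were higher, by 0.04 to 0.14 on average. SMAD3 reached the level filter on 4 arrays with the shRNA and on 2 without it. HDAC1 and SMAD5 were lower, and SMAD5 was 0.05 higher when its clusters were averaged. Of the 24, 1 was higher in all pairs and 3 lower after median-centring, and 4 and 2 after quantile normalization. Without the pair of the array labelled shRUNX1, 5 were higher and 4 lower, with a median of 0.02. Known myeloid targets of the core-binding factor gave 9 of 15 positive with a median of 0.04, with CD4, CSF2RA and LYZ higher in all pairs. That median turned to -0.01 without the pair of the array labelled shRUNX1, with 3 higher and 1 lower. CSF1R, the receptor of the macrophage growth factor, gave 0.26, 0.51, 0.22 and -0.14, and MPO, the neutrophil peroxidase, -0.01, -0.51, 0.00 and -0.12. Of 23 bone and cartilage targets of RUNX2, 4 passed the level filter, too few to describe as a list.

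The genes of plasmacytoid dendritic cells, in which RUNX2 is known to act, were mixed. Of 14 tested, 10 were positive with a median of 0.08, with IL3RA, PLD4 and ID2 higher in all pairs and BCL11A lower. Without the pair of the array labelled shRUNX1 the median was 0.05, with 3 higher and 2 lower. PLD4, a nuclease of the endolysosome, gave 0.46, 0.39, 0.12 and 0.05. ID2, which opposes that lineage, gave 0.22, 0.20, 0.24 and 0.10. BCL11A, a transcription factor that promotes it, gave -0.27, -0.45, -0.01 and -0.10, and SPIB, another such factor, -0.20, -0.40, 0.20 and 0.02. SPIB reached the level filter on only 1 array with the shRNA and on 2 without it.

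The remaining lists are given by counts. Granule proteins had 6 of 12 positive and 1 higher in all pairs. Ribosome biogenesis genes had 11 of 23 positive, with 1 higher and 2 lower. Immediate early genes had 10 of 15 positive and 1 lower, the BCL2 family 9 of 13 with 1 higher, and housekeeping genes 5 of 9 with none in either direction. In the 3 pairs without the array labelled shRUNX1, higher and lower genes numbered 1 and 2 of the granule list, 4 and 2 of ribosome biogenesis, 2 and 1 of the immediate early genes, 2 and 1 of the BCL2 family and 0 and 0 of the housekeeping genes.

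**Figure D4:**
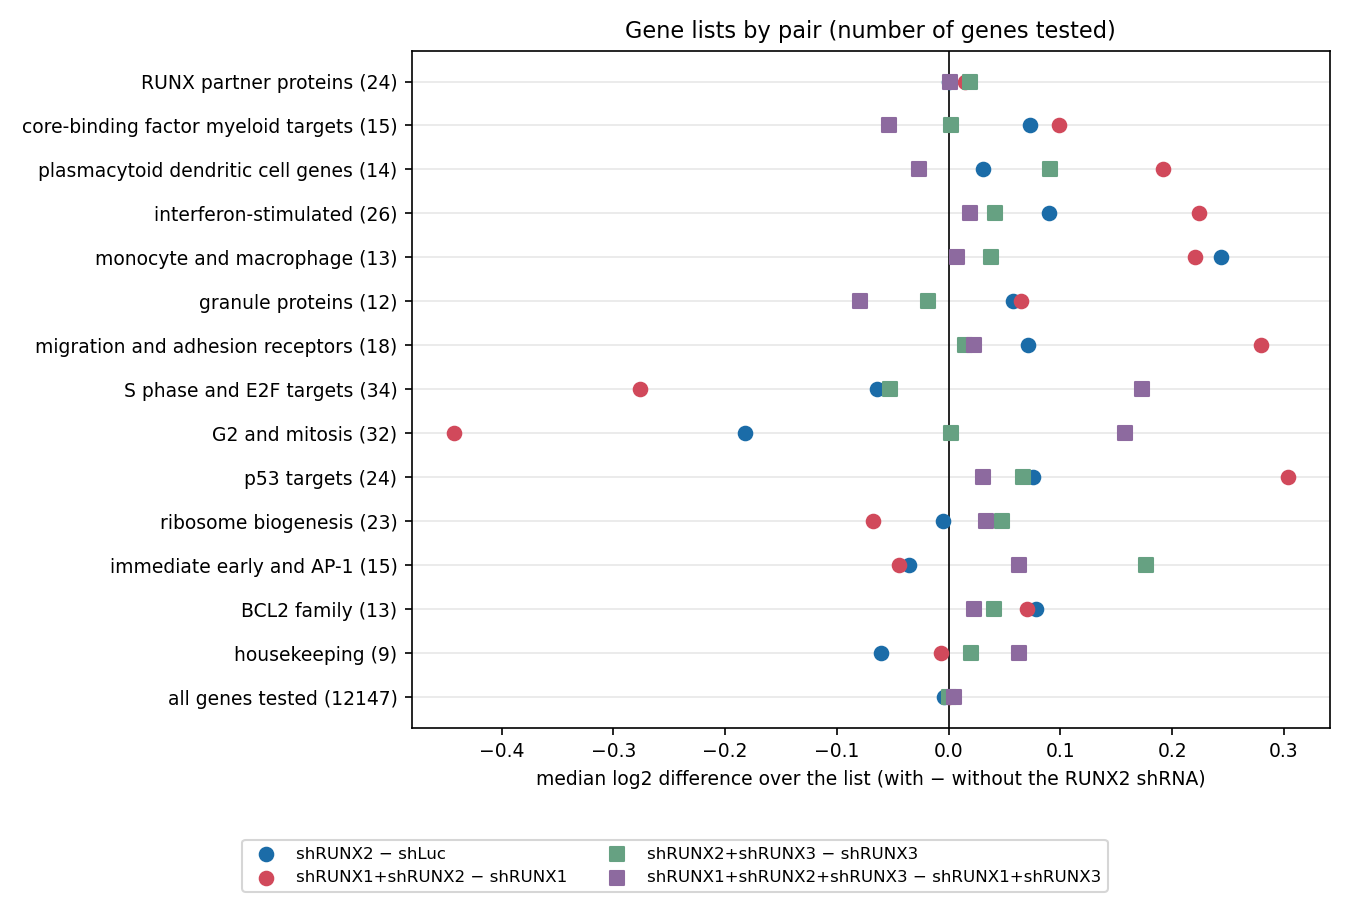
Median log2 difference (with minus without the RUNX2 shRNA) over the tested genes of the functional lists and over all genes tested, 1 marker per pair, with the number of genes tested in brackets. The G2 and mitosis list spreads from -0.44 to 0.16 over the pairs, while interferon-stimulated genes lie between 0.02 and 0.22.

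Among the 16 lists, the pair medians spread widest in G2 and mitosis, followed by S phase. Of 32 genes of G2 and mitosis tested, 31 had a negative mean difference and the median was -0.13, but only CDC25C and BUB1 were lower in all 4 pairs. The median over the list was -0.18, -0.44, 0.00 and 0.16 in the 4 pairs. Without the RUNX3 shRNA 0 of 32 genes were positive on average, and with it 27 of 32. Pair by pair, 1, 0, 16 and 29 of the 32 were positive. The positive average with the RUNX3 shRNA thus rests mainly on the shRUNX1+shRUNX2+shRUNX3 pair. Without the pair of the array labelled shRUNX1 the median was -0.01. S phase genes had 26 of 34 negative, a median of -0.06 and pair medians of -0.06, -0.28, -0.05 and 0.17. That median turned to 0.02 without the pair of the array labelled shRUNX1. CDC25C, the phosphatase that opens mitosis, read 6.17, 5.61, 6.10 and 5.62 with the shRNA and 6.58, 6.34, 6.38 and 5.70 without it. CDK1, the mitotic kinase, gave -0.16, -0.69, 0.04 and 0.01. E2F7, a repressor of the E2F programme, gave -0.27, -0.54, -0.05 and -0.23.

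Whether the RUNX2 shRNA difference depended on another shRNA was tested by adding an interaction term to the fit. The RUNX1:RUNX2 term called 0 genes (0.0%), while 285 (2.35%) had an unadjusted p below 0.05. The RUNX2:RUNX3 term likewise called 0 (0.0%), against 572 (4.71%) unadjusted. For RUNX1:RUNX2 the leading gene was ZNF736, a zinc finger protein, with differences of -0.80 and -0.83 without the RUNX1 shRNA and 0.41 and 0.24 with it. The term was 1.14 (SE 0.126, limma adjusted p = 0.956). The array labelled shRUNX1 and shRUNX1+shRUNX3 read 4.13 each, against 4.69 in shLuc.

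The genes leading the RUNX2:RUNX3 term had larger differences in the pairs without the RUNX3 shRNA than in the pairs with it. CFP, properdin, the positive regulator of the alternative complement pathway, read 6.00, 6.27, 5.30 and 5.73 with the RUNX2 shRNA and 5.14, 5.49, 5.67 and 6.19 without it. Its pairs were 0.86 and 0.78 without the RUNX3 shRNA and -0.37 and -0.45 with it, a term of -1.23 (SE 0.130, limma adjusted p = 0.705). CD70, the ligand of CD27 studied in leukaemia stem cells, read 7.87, 8.04, 7.48 and 7.27 against 6.80, 6.67, 7.27 and 7.22. Its arrays with the RUNX2 shRNA lay above all without it, but the array with all 3 shRNAs and shRUNX3 both read 7.27 at this rounding. The pair differences ran from 0.05 to 1.37, and the term was -1.08.

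CHI3L1, a secreted chitinase-like protein of macrophages, read 7.84, 8.09, 7.48 and 7.34 with the shRNA and 7.15, 7.20, 7.58 and 7.75 without it. IGF1, the growth factor, read 5.93, 5.87, 5.25 and 5.27 against 4.85, 5.09, 5.19 and 5.50. In both genes the 2 arrays with the RUNX2 shRNA but no RUNX3 shRNA were the highest of the 8. Terms of -1.04 and -1.02 had an adjusted p of 0.988 in limma. ITGAX, the integrin chain CD11c, gave 0.67, 0.71, -0.09 and -0.15. It lay near the level filter, reached it on 3 arrays with the RUNX2 shRNA and on 2 without it, and read 3.23 in shLuc. Other genes of myeloid cells with the same order, picked out after their values were seen, were CD300A (0.43, 0.43, -0.55 and -0.60), CXCR2 (0.58, 0.50, -0.20 and -0.12) and SEMA6B (1.05, 0.68, -0.34 and -0.11). In the monocyte list the RUNX2:RUNX3 term was negative in 12 of 13 genes, beside 48.1% of all genes. In the G2 and mitosis list it was positive in 32 of 32, beside 51.9%. Other lists leaned as well: it was negative in 19 of 24 p53 targets and 12 of 15 core-binding factor targets. The same held for 13 of 18 migration and adhesion receptors and 9 of 12 granule proteins. In S phase genes it was positive in 33 of 34. Among RUNX partner proteins it was negative in 11 of 24. Differences between lists were not tested.

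**Figure D5:**
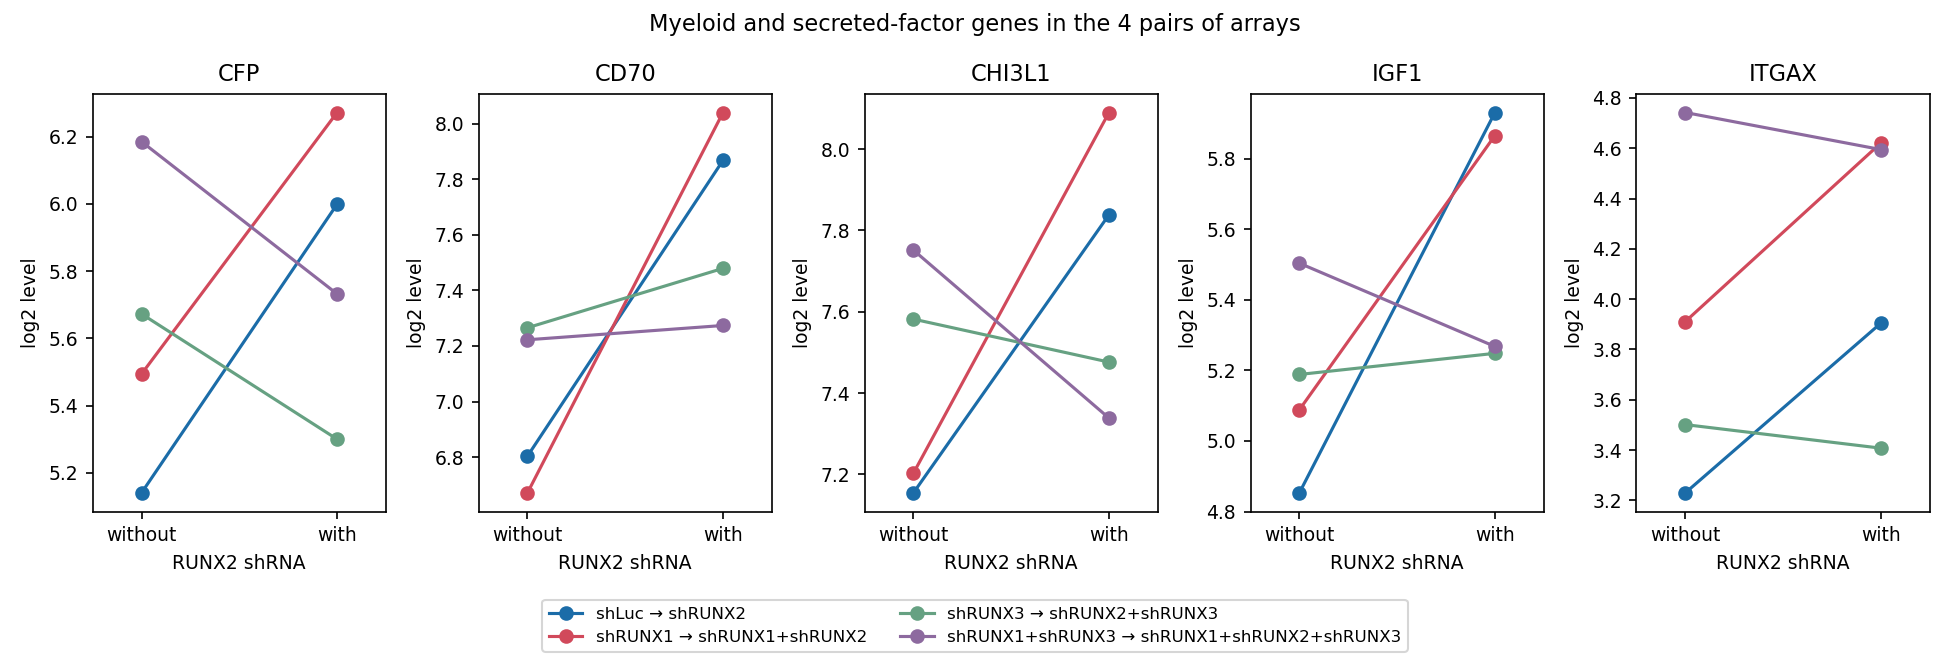
Log2 levels of CFP, CD70, CHI3L1, IGF1 and ITGAX without (left) and with (right) the RUNX2 shRNA; each line joins the arrays of 1 pair. The CFP differences are 0.86 and 0.78 in the pairs without the RUNX3 shRNA and -0.37 and -0.45 in the pairs with it.

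Several properties that the sign rule did not use were compared as descriptions. Protein-coding genes were 88.6% of the 930 higher genes and 90.0% of the 770 lower genes, beside 87.0% of all tested. The median genomic span was 28.4 kb and 30.8 kb, beside 27.6 kb. The median log2 level of the higher genes was 5.91 and of the lower genes 6.29, beside 5.88. Long noncoding RNAs gave 47 higher and 24 lower of 529, snoRNAs 2 higher and 9 lower of 121, and microRNA loci 19 higher and 16 lower of 298. Beside these stand 7.66% higher and 6.34% lower of all genes tested, and differences between classes were not tested.

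The compound experiment shares no array with the pairs. Against DMSO, Chb-M' was higher in 55.2% of the 930 higher genes and in 52.2% of the 770 lower genes, beside 54.3% of all genes tested. Chb-50 was higher in 50.6% and 45.1%, beside 49.5%. Of the 15 higher genes described by pair, 7 were higher with each compound, and of the 15 lower genes 6 were higher with Chb-M' and 7 with Chb-50. GADD45A was 0.95 higher with Chb-M' and 0.80 higher with Chb-50. The whole p53 target list was high with the compounds, with medians of 0.61 and 0.41. CDKN1A, with a mean difference of 0.01 for the RUNX2 shRNA, was 1.44 and 1.23 higher with them. GAPT differed by -0.56 with Chb-M' and by -0.07 with Chb-50. There was 1 array per compound, so these differences have no replicate check.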

How the data were processed

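RNA of 11 MV4-11 cultures was measured on Affymetrix arrays, 1 array per condition. The authors deposited log2 levels, 1 per transcript cluster. RMA, Transcriptome Analysis Console 1.0 and Affymetrix Expression Console 1.3.1 are named per the submitters' processing notes, without their roles. The genome build is not stated in the labels or notes. With no detection values, the number of arrays limits the precision.

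Of 53617 clusters, 23558 had 1 gene symbol, 2155 several and 27904 none listed. Entrez identifiers of 22271 matched RefSeq (GRCh38.p14). For 618 genes with several clusters the one with the highest mean was used. The filter asked for 3.80, the median of all 1-symbol values, on at least 1 of the 11 arrays, which left 12147 genes.

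For the 8 knockdown arrays the fit was by limma 3.58.1, run in R 4.3.3 (terms for the 3 shRNAs, 4 residual and 3.19 prior degrees of freedom, Benjamini-Hochberg adjustment over all genes tested, threshold 0.05). The fit was tested on simulated data. The RUNX2 term equals the mean of the 4 pair differences. Interaction terms were added 1 at a time. Genes named were the RUNX family and CBFB, the 15 higher and 15 lower protein-coding genes with the largest smallest-pair difference, those of smallest p in each fit and the extremes of each gene list; small RNAs and uncharacterised loci were counted only, other picks of the fits and of lists given by counts were not described, and some genes were named after their values were seen. The members and the gene lists were chosen with earlier results of these data known. Alternatives covered the filter, scaling, clusters, model terms and each array left out.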

Additional observations from a re-analysis of the deposited data

Results flagged for a closer look

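In 4 of 64 groups of 4 arrays, over the genes described by pair or family, 1 array stood apart from the other 3. Among replicates about 1 in 20 groups does so by chance. That rate does not apply here, because each group holds 4 different conditions and most of these genes were ranked on the same arrays. FSCN1 read 6.05 on shRUNX1+shRUNX2, against 5.92 on the other 3 arrays with the RUNX2 shRNA. GAS7 read 5.66 on shRUNX1+shRUNX2+shRUNX3, against 5.19 to 5.22. GPR153 read 5.19 on shRUNX2+shRUNX3, against 4.83 to 4.88. NSF read 8.77 on shRUNX1+shRUNX3, against 9.18 to 9.21 on the other 3 arrays without the shRNA.

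In 6 lists the median difference had one sign in both pairs without the RUNX3 shRNA and the opposite sign in both pairs with it; these differences between lists' medians were not tested. The change from RUNX3 shRNA absent to present was 0.39 for G2 and mitosis, 0.16 for immediate early genes, 0.077 for ribosome biogenesis and 0.074 for housekeeping genes. For G2 and mitosis the median of the shRUNX2+shRUNX3 pair was only 0.0018, so its sign there is barely positive. It was -0.11 for granule proteins and -0.079 for the RUNX and core-binding factor list.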

How the results depend on the processing

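By replicate number, no paired analysis was possible because every array has the same number. The pairs used here match arrays on the other shRNAs, and a block for these pairs called 0 genes, while 759 had an unadjusted p below 0.05. The additive fit called 0 genes and the interaction fits 0 under every alternative, and the lowest adjusted p of the additive fit was 0.055, without shRUNX1+shRUNX2. The RUNX2 difference lay between -0.49 and -0.40 with 1 array left out. Genes sharing a sign numbered 2718 with no level filter, 585 at 0.05 log2 or more and 219 at 0.1, and 2952 to 3465 with 1 array left out, which leaves 3 pairs to agree. At 0.2 log2 they numbered 105 to 178 with 1 array left out, and 9 at 0.3.

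Of 1725 recomputed differences of 115 named genes, 41 in 15 genes turned sign. With 1 array left out, CCND3 ranged from -0.18 to 0.053, CDK1 from -0.36 to 0.024, CHAF1A from -0.090 to 0.21, E2F2 from -0.11 to 0.24, E2F8 from -0.36 to 0.10, IFIH1 from -0.048 to 0.063 and ITGB1 from -0.078 to 0.056. MAD2L1 ranged from -0.18 to 0.16 and was -0.018 after median-centring. TLE2 ranged from -0.0058 to 0.28, TRIAP1 from -0.24 to 0.066, TTK from -0.12 to 0.089, MS4A7 from -0.014 to 0.18 and CD300A from -0.24 to 0.10. CDKN1A ranged from -0.080 to 0.11 and was -0.0054 after median-centring and -0.0015 after quantile normalization. SMAD5 was 0.046 when clusters were averaged. The cause was not tested. Without detection values, signal over background sets no limit that can be stated here.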
